A study of Drosophila melanogaster with 12 samples.

Results

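The mitochondrial respiratory chain was followed through 67 genes in cultured organs of Drosophila melanogaster larvae that received the steroid hormone 20-hydroxyecdysone (20E), the translation inhibitor cycloheximide, both, or neither. The members were chosen by name: every probe set (a group of probes for 1 transcript) with exactly 1 annotated gene whose symbol starts with ND-, Sdh, UQCR-, COX followed by a digit, or ATPsyn. These 67 genes stood among 10844 genes with a probe set of their own and 13966 probe sets in all. They comprised 49 subunits, 17 paralogs (second copies whose symbols carry an L after the name of a subunit) and 1 assembly factor, Sdhaf3. Complex I had 31 of them, complex II 7, complex III 4, complex IV 11 and complex V 14.

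The respiratory chain lies in the inner mitochondrial membrane. Complexes I (NADH dehydrogenase) and II (succinate dehydrogenase, which is also an enzyme of the tricarboxylic acid cycle) feed electrons through ubiquinone to complex III, the cytochrome bc1 complex, and complex IV, cytochrome c oxidase, passes them from cytochrome c to oxygen. Complexes I, III and IV pump protons, and complex V, ATP synthase, uses the returning protons to make ATP. Most subunits are encoded in the nucleus and imported. A few core subunits are encoded by mitochondrial DNA, and these are outside the naming rule.

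The 4 groups had 3 arrays each: 20E plus cycloheximide, 20E alone, cycloheximide alone, and no hormone. The organs came from w1118 larvae late in the last larval instar, staged by partially cleared blue guts and recorded as 8 h before puparium formation. Organs of 8 animals were pooled per well and kept for 6 h at 25 °C after 1 h without additions, with 20E at 5 µM and cycloheximide at 85 µM where they were given. The sample labels name the source as whole animal, whereas the methods describe dissected organs in culture, and the methods are followed here. All tissues of a pool were hybridized in 1 sample, so that more transcript per cell and more cells of a tissue could not be told apart. A pool harvested separately stood behind each array, and p-values measure the spread between such pools.

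The 12 arrays were alike in scale, with log2 values of replicate arrays correlating at 0.983 to 0.993 across probe sets, and no member had an intensity under the floor of 10 on any array. A member was called where limma's test gave an adjusted p under 0.10 (Benjamini-Hochberg, over the 13966 probe sets) and the difference was at least 1.3-fold. Each difference below is a log2 difference of intensities, the tested treatment minus its control. Intensities of different genes come from different probes and are not set against each other.

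Most respiratory chain genes differed little between the treatments. The fold range of a member over all 12 arrays had a median of 1.28, against 1.35 for all probe sets. The F1 central stalk gene ATPsyngamma and the peripheral stalk gene ATPsynO had the narrowest ranges, both 1.11-fold. ATPsyngamma had intensities of 610.2, 591 and 594 with 20E plus cycloheximide, 578, 615 and 612 with 20E, 599, 593 and 587 with cycloheximide, and 580.3, 555 and 604 without hormone. ATPsynO had 640, 649 and 643 with 20E plus cycloheximide, 628, 657 and 625 with 20E, 673, 628 and 607 with cycloheximide, and 651, 616 and 666 without hormone. For both genes, the groups overlapped in all 4 comparisons.

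With 20E alone, the members lay slightly above the no hormone arrays as a group, and none was called. Of 67 members, 51 had a difference above 0, with a median of 0.10, whereas 47.9% of all probe sets did, with a median of -0.01. No member was called higher and none lower, where 1.76% of all probe sets were called higher and 0.394% lower. An unadjusted p under 0.05 was found for 11 members, 16.4% of them, against 14.9% of all probe sets. Of the 67 members, 20 (29.9%) had every 20E array above every no hormone array, against 10.6% of all probe sets, and 4 (5.97%) had every 20E array below, against 10.1%. The 95% interval of the difference lay within 1.3-fold in both directions for 47 members, and for 68.2% of all probe sets.

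In the presence of cycloheximide the same hormone gave differences centred near 0. The median over the members was 0.00 for 20E plus cycloheximide minus cycloheximide, and 36 of 67 differences were above 0, against a median of 0.02 and 56.4% over all probe sets. No member was called, whereas 0.68% of all probe sets were called higher and 0.573% lower. The largest differences were -0.41 for ATPsynC, the only one past 1.3-fold, 0.30 for SdhAL and 0.21 for ND-B17.2. Of the members, 1 had all arrays above and 1 all arrays below, where the shares over all probe sets were 7.78% and 6.09%. An unadjusted p under 0.05 was found for 1 member, SdhAL, against 10.2% of all probe sets. The interval lay within 1.3-fold for 57 members, and for 72.2% of all probe sets. The difference between both effects of 20E, tested as an interaction term, had a median of -0.10 over the members and was above 0 for 22 of 67, against 0.02 and 52.8% over all probe sets. It was called for no member at an adjusted p under 0.10 and for 0.136% of all probe sets. For 12 members, 17.9%, the unadjusted p of the interaction was under 0.05, against 14.7% of all probe sets.

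**Figure D1:**
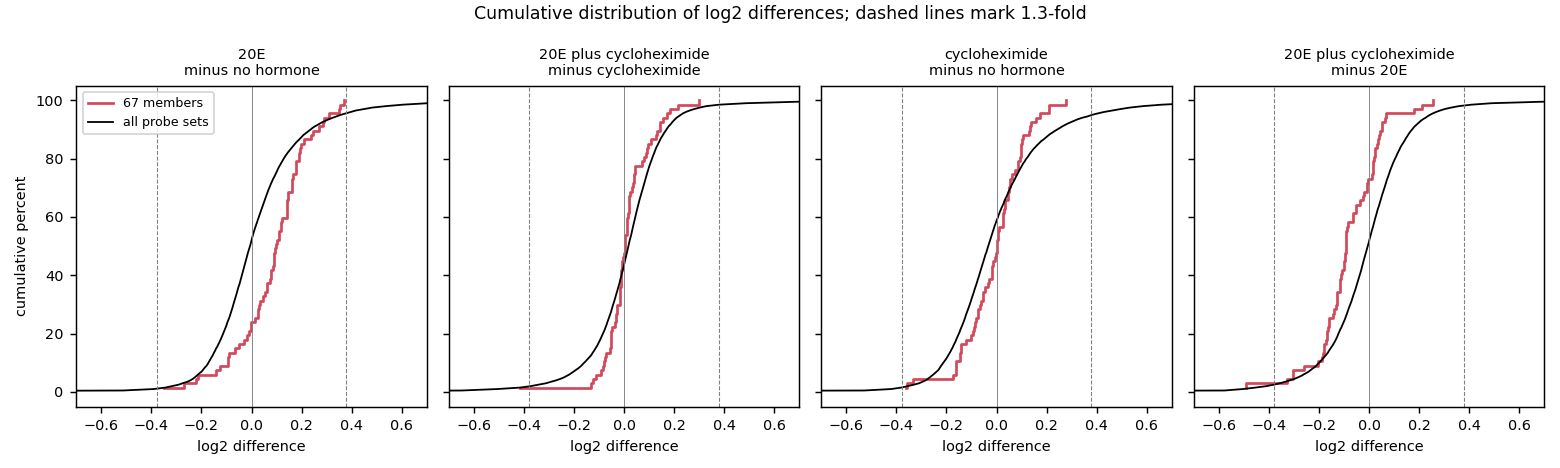
Cumulative percent (vertical axis) of log2 differences (horizontal axis) for the 67 respiratory chain genes (red steps) and all 13966 probe sets (black), 1 panel per comparison, with dashed lines at 1.3-fold. The red curve lies to the right of the black one for 20E minus no hormone (medians 0.10 and -0.01) and to the left for 20E plus cycloheximide minus 20E (medians -0.09 and -0.01).

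The cumulative curves show a small displacement of many members rather than a large one of a few, and nearly all members lie inside the 1.3-fold lines. On single arrays the displacement was uneven. The median deviation of the members from their no hormone means was 0.05, 0.15 and 0.09 on the 20E arrays and 0.03, -0.07 and 0.01 on the no hormone arrays. No hormone replicate 2 had the lowest intensity of 19 members, and 20E replicate 2 had the highest of 18. Without no hormone replicate 2 the median difference was 0.07, and without 20E replicate 2 it was 0.08.

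**Figure D2:**
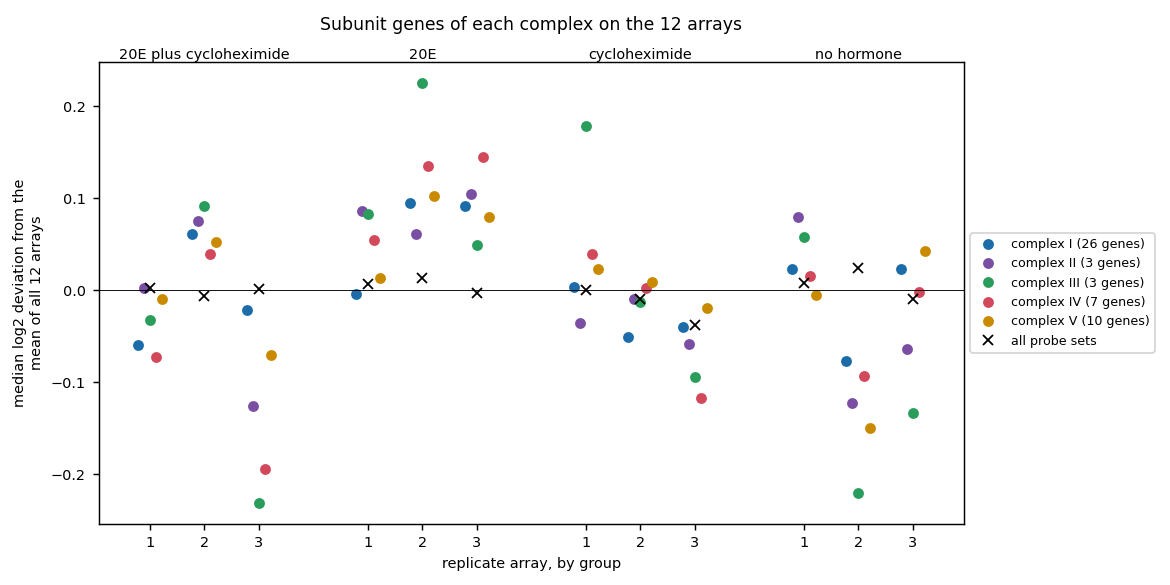
Median log2 deviation of the subunit genes of each complex from their means over the 12 arrays (vertical axis), for each replicate array by group (horizontal axis), with crosses for all probe sets. Complexes II to V lie above 0 on all 3 20E arrays. All 5 complexes lie below 0 on no hormone replicate 2, cycloheximide replicate 3 and 20E plus cycloheximide replicate 3.

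Testis marker levels differed between the pools and moved with some of these values, and their part in the result was tested only as the covariate given here. All 20 listed testis markers were measured, 15 of them at mean intensities above 100. Their summed intensity ranged from 4853 to 8117 on the 20E plus cycloheximide arrays, 5798 to 7921 on the 20E arrays, 4920 to 7585 on the cycloheximide arrays and 4737 to 6648 on the no hormone arrays. None of the 20 was called in any comparison, and 17 of 20 had a difference above 0 for 20E minus no hormone, with a median of 0.14. Over all probe sets, 0.394% to 3.55% were called per direction in the 4 comparisons. Midgut markers had a difference above 0 for 8 of 10 genes measured, with a median of 0.10 and a lowest value of -1.63, and their mean log2 intensity overlapped between the groups, at 10.54 to 10.85 on the 20E arrays and 10.57 to 10.99 on the no hormone arrays. For the same comparison a difference above 0 was found for 4 of 6 salivary gland markers (median 0.09), 2 of 8 muscle markers (median -0.09), 2 of 7 nervous system markers (median -0.12) and 0 of 3 fat body markers (median -0.01). No marker of these 5 tissues was called in any comparison, and their part in the members' values was not tested. With the testis marker level as a covariate, 43 of 67 members had a difference above 0 for 20E minus no hormone, with a median of 0.06, and 27 of 67 for 20E plus cycloheximide minus 20E, with a median of -0.06.

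Complex I couples oxidation of NADH in its matrix arm to proton pumping in its membrane arm. Of its 26 subunit genes, 19 had a difference above 0 for 20E minus no hormone, with a median of 0.08. In the matrix arm 6 of 10 genes were above 0, and in the membrane arm 12 of 15. The accessory subunit gene ND-MWFE had intensities of 270.0, 301 and 306 with 20E, against 245, 204 and 242 without hormone. All 3 20E arrays lay above all 3 no hormone arrays. The difference was 0.35 (SE 0.11, 1.27-fold, adjusted p = 0.155), and it was not called. ND-MWFE was also 1 of the 6 subunit genes whose level correlated with the testis markers over the 12 arrays, as described with the paralogs. The matrix arm gene ND-B14 had intensities of 234, 255 and 264 with 20E, against 203, 193 and 229 without hormone. Its arrays did not overlap either, and its difference of 0.27 (SE 0.08, adjusted p = 0.151) was not called. ND-B16.6 and ND-B22, accessory subunit genes of the membrane arm named for the strong signal of their probe sets, had overlapping arrays and differences of 0.00 and 0.17.

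The core subunit genes of complex I among the members were ND-51, ND-75 and ND-20, and their differences with 20E were small. ND-51, which binds NADH, had a difference of 0.03 for 20E minus no hormone, with an interval of 0.914 to 1.14-fold. ND-75, an iron-sulphur core subunit, had -0.05, with an interval of 0.824 to 1.13-fold. ND-20, also an iron-sulphur subunit, had intensities of 228, 248 and 235 with 20E, against 228, 210.3 and 226 without hormone. The lowest 20E array of ND-20 lay just above the highest no hormone array. Its difference was 0.10 (adjusted p = 0.481).

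Among complex I subunit genes, ND-B8 and ND-B17.2 had the largest differences of the 4 comparisons, both for cycloheximide alone. ND-B8, a matrix arm accessory subunit gene, had intensities of 116, 137 and 116 with cycloheximide, against 156, 158 and 158 without hormone. Every cycloheximide array lay below every no hormone array. The difference was -0.36 (SE 0.09, 0.78-fold, 95% interval 0.677 to 0.899-fold, adjusted p = 0.0558). ND-B17.2, in the same arm, had intensities of 163, 160 and 129 with cycloheximide, against 184, 212 and 182 without hormone. Its arrays did not overlap, and its difference was -0.36 (SE 0.10, 0.778-fold, adjusted p = 0.0756). Both genes passed the adjusted p but lay just inside the 1.3-fold limit, so neither was called. Without cycloheximide replicate 2 both passed the limit as well, at -0.44 for ND-B8 and -0.41 for ND-B17.2. Without no hormone replicate 1, ND-B17.2 was called at -0.39.

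Over all members, cycloheximide minus no hormone had a median of 0.00 and 34 of 67 differences above 0, against a median of -0.03 and 41.2% over all probe sets. No member was called, whereas 3.55% of all probe sets were called higher and 0.866% lower. All cycloheximide arrays lay above all no hormone arrays for 3 members (4.48%), against 12.1% of all probe sets, and below them for 7 (10.4%), against 15%. Of those 7, ND-20L had 141, 140.3 and 147 with cycloheximide, against 161, 156 and 162 without hormone, a difference of -0.16 (SE 0.05, adjusted p = 0.108). An adjusted p under 0.10 at any fold was found for ND-B8 and ND-B17.2 only, 2 of 67, against 7.71% of all probe sets. An unadjusted p under 0.05 was found for 4 members (5.97%), against 21.1% of all probe sets. The interval lay within 1.3-fold for 52 members, and for 63.5% of all probe sets.

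Complex II had 3 measured subunit genes, SdhB (the iron-sulphur subunit) and the membrane anchors SdhC and SdhD. All 3 had a difference above 0 for 20E minus no hormone, between 0.04 and 0.15, and none was called. SdhD had intensities of 363, 371 and 367 with 20E, against 361, 309 and 327 without hormone. The lowest 20E array was barely above the highest no hormone array, and the difference was 0.15 (SE 0.08, adjusted p = 0.395). SdhB had 603, 643 and 536 with 20E plus cycloheximide, 585, 628 and 649 with 20E, 582, 624 and 578 with cycloheximide, and 600, 630 and 575 without hormone. All 4 groups of SdhB overlapped. The assembly factor gene Sdhaf3 had differences between -0.07 and 0.13 in the 4 comparisons, and none was called.

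Complex III had 3 measured subunit genes under the naming rule, UQCR-14, UQCR-6.4 and UQCR-Q. All had a difference above 0 for 20E minus no hormone, at 0.29, 0.20 and 0.19, while in the presence of cycloheximide the differences were -0.11, -0.12 and -0.05. Without 20E plus cycloheximide replicate 3 the values were 0.00458 for UQCR-14, -0.03 for UQCR-6.4 and 0.02 for UQCR-Q. UQCR-14 had intensities of 410.2, 433 and 405 with 20E, against 369, 321 and 330.4 without hormone. Every 20E array lay above every no hormone array. The difference was 0.29 (SE 0.10, 1.22-fold, 95% interval 1.05 to 1.42-fold, adjusted p = 0.21). With 20E plus cycloheximide UQCR-14 had 355, 375 and 287, against 394, 360 and 339 with cycloheximide, and these arrays overlapped. Its interaction was -0.40 (SE 0.14, adjusted p = 0.262) and was not called.

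The 11 measured genes of complex IV, 7 subunits and 4 paralogs, all had their highest group mean with 20E. All 11 had a difference above 0 for 20E minus no hormone, with a median of 0.18, and none had one above 0 for 20E plus cycloheximide minus 20E, with a median of -0.18. A probe set annotated to both COX6AL2 and Ir75d, which the rule left out, had -0.16 and 0.24 there, at a mean intensity of 38.0. Both comparisons share the 20E arrays. In the comparisons without those arrays the genes lay on both sides of 0, with 3 of 11 above 0 for 20E plus cycloheximide minus cycloheximide (median -0.05) and 7 of 11 for cycloheximide minus no hormone (median 0.03). With the testis marker level as a covariate, 8 of 11 were above 0 in the first and 4 of 11 in the second. With quantile normalization 9 of 11 were above 0 in the first.

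COX4, a nuclear-encoded subunit of cytochrome c oxidase, had intensities of 787, 763 and 718 with 20E plus cycloheximide, 964, 902 and 930.2 with 20E, 829, 794 and 790 with cycloheximide, and 831, 773 and 812 without hormone. All 3 20E arrays lay above the other 9, and all 3 20E plus cycloheximide arrays lay below all 3 cycloheximide arrays. Among the members, only COX4 had every 20E array above every no hormone array and every 20E plus cycloheximide array below every cycloheximide array. This held for 0.537% of all probe sets. The difference was 0.21 (SE 0.07, adjusted p = 0.161) for 20E minus no hormone and -0.09 (SE 0.07, adjusted p = 0.712) for 20E plus cycloheximide minus cycloheximide. For 20E plus cycloheximide minus 20E it was -0.30 (SE 0.07, 0.811-fold, 95% interval 0.735 to 0.895-fold, adjusted p = 0.047), which passed the adjusted p but not the fold limit. Its interaction was -0.30 (SE 0.09, adjusted p = 0.226).

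COX5A, another subunit of the same complex, had intensities of 280.1, 309 and 253 with 20E plus cycloheximide, 340.4, 347 and 367 with 20E, 284, 290.2 and 264 with cycloheximide, and 302, 267 and 329 without hormone. Its 20E arrays lay above all other arrays. The difference was 0.24 (SE 0.09, adjusted p = 0.257) for 20E minus no hormone and -0.33 (SE 0.09, adjusted p = 0.116) for 20E plus cycloheximide minus 20E. Without 20E plus cycloheximide replicate 2, COX5A was called in the second comparison, at -0.40 with an adjusted p of 0.0707. COX5B, COX7A and COX7B also had every 20E array above every no hormone array, with differences of 0.09, 0.12 and 0.16, and COX8 (0.09) and COX7C (0.25) had overlapping arrays.

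**Figure D3:**
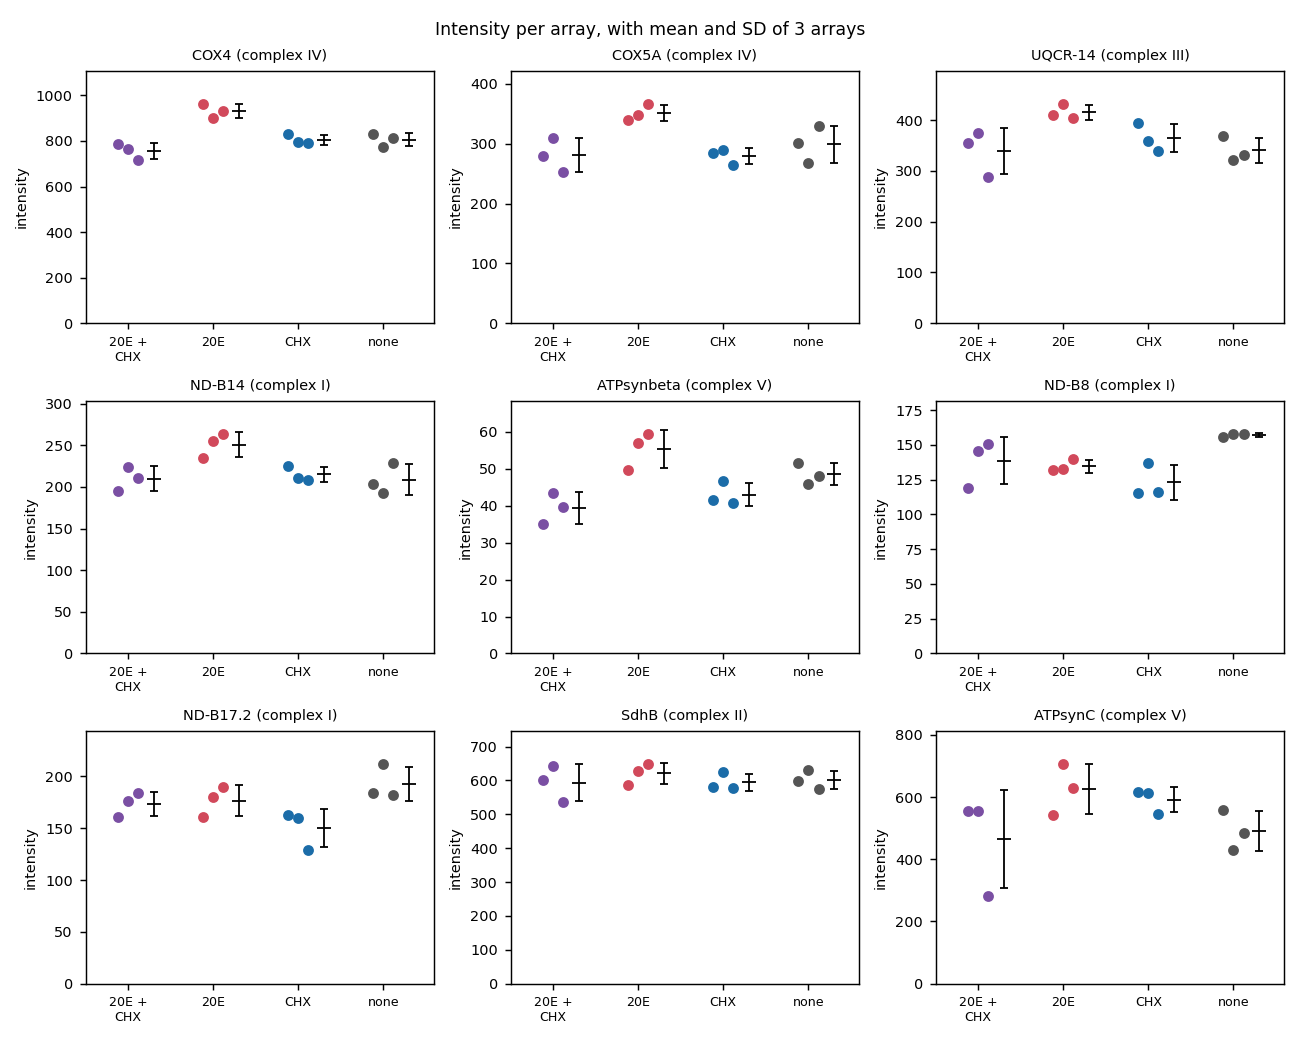
Intensity on each array (points, vertical axis, linear from 0) with the mean and SD of 3 arrays (bars) for 9 members by group (horizontal axis; CHX is cycloheximide, none is no hormone). COX4, COX5A, UQCR-14 and ND-B14 have their 20E arrays above their no hormone arrays, while ND-B8 and ND-B17.2 have their cycloheximide arrays below them.

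Adding cycloheximide to 20E went with lower values for most members. For 20E plus cycloheximide minus 20E, 18 of 67 differences were above 0, with a median of -0.09, against 48.2% and a median of -0.01 over all probe sets. All 20E plus cycloheximide arrays lay below all 20E arrays for 16 members (23.9%), against 9.32% of all probe sets, and above them for none, against 8.64%. These 16 share their 20E arrays with the comparison against no hormone. The called members were 0 higher, against 0.981% of all probe sets, and 1 lower, ATPsynbeta, against 1.01%. An adjusted p under 0.10 at any fold was found for ATPsynbeta and COX4, 2 of 67, against 2.78% of all probe sets. An unadjusted p under 0.05 was found for 10 members (14.9%), against 13.9%. The interval lay within 1.3-fold for 48 members, and for 69.2% of all probe sets.

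Complex V joins the catalytic F1 head to the proton-conducting Fo part. ATPsynbeta, the catalytic subunit, had intensities of 35.0, 43.6 and 39.6 with 20E plus cycloheximide, 49.6, 57.0 and 59.5 with 20E, 41.6, 46.7 and 40.9 with cycloheximide, and 51.7, 45.8 and 48.0 without hormone. All 20E plus cycloheximide arrays lay below all 20E arrays, while the 20E arrays overlapped those without hormone. The difference for 20E plus cycloheximide minus 20E was -0.49 (SE 0.10, 0.711-fold, 95% interval 0.612 to 0.825-fold, adjusted p = 0.0343). The call was lost without 20E plus cycloheximide replicate 1 (-0.41, adjusted p = 0.108) or replicate 3 (-0.50, adjusted p = 0.111), and without 20E replicate 2 (-0.47, adjusted p = 0.106) or replicate 3 (-0.44, adjusted p = 0.157). With a floor of 50, which lies above most of its values, the difference was -0.15. Its interaction was -0.32 (SE 0.14, adjusted p = 0.323).

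ATPsynC, which forms the rotating c-ring, had the widest range over the 12 arrays of any member, 2.50-fold. It had intensities of 555, 556 and 282 with 20E plus cycloheximide, 543, 706 and 629 with 20E, 616, 614 and 546 with cycloheximide, and 557, 429 and 484 without hormone. A single array, 20E plus cycloheximide replicate 3, stood far below the rest. The difference for 20E plus cycloheximide minus 20E was -0.49 (SE 0.22, adjusted p = 0.348), and -0.16 (SE 0.13) without that array. For 20E plus cycloheximide minus cycloheximide it was -0.41, and -0.09 without that array. The interaction was -0.77, the largest of any member, and -0.44 without that array, and neither was called. A dimmer probe set of the same gene had differences of -0.23 for 20E minus no hormone and 0.10 for 20E plus cycloheximide minus 20E, opposite in sign to 0.35 and -0.49 on the brighter one. Its interaction of 0.33 was opposite in sign as well. ATPsyndelta, a central stalk gene, had -0.27 (SE 0.14, adjusted p = 0.393) for 20E minus no hormone, the only subunit gene of complex V besides ATPsynO below 0 there. The other 8 lay between 0.05 and 0.35, among them ATPsynB and ATPsynCF6 of the peripheral stalk at 0.16 and 0.14. ATPsynD of the peripheral stalk and the membrane subunit gene ATPsynE, named for the strong signal of their probe sets, had every 20E array above every no hormone array, with differences of 0.08 and 0.18. A probe set annotated to both ATPsynG and beat-Vb, which the rule left out, had 0.27 there (adjusted p = 0.134). For 20E plus cycloheximide minus 20E that probe set had -0.37 (adjusted p = 0.0439), under the fold limit. Its arrays did not overlap in either comparison.

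**Figure D4:**
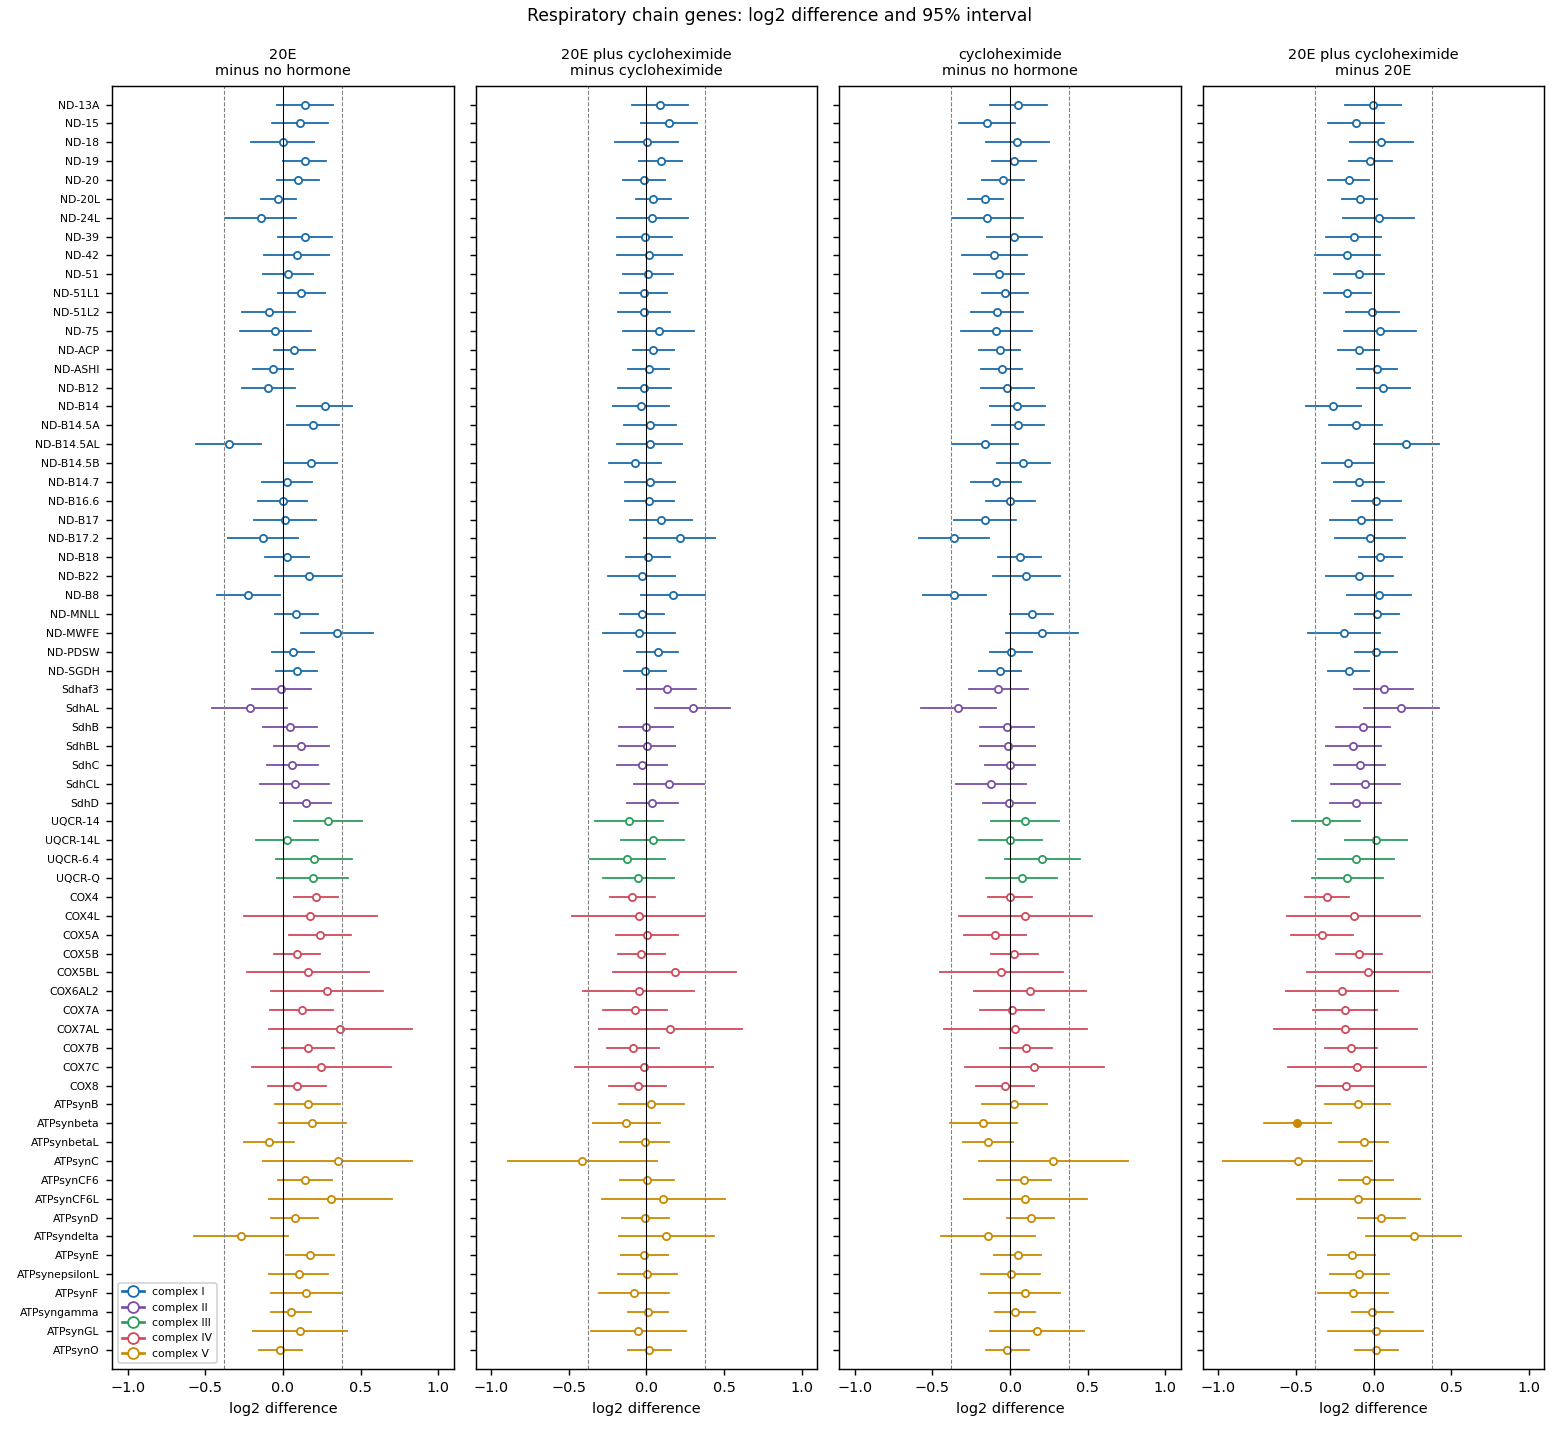
Log2 difference (point) and 95% interval (line) of each of the 67 respiratory chain genes, by complex, in 4 comparisons, with dashed lines at 1.3-fold in both directions. The only filled point, ATPsynbeta at -0.49 in the last panel, is the only called member.

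Paralogs lay on both sides of their controls. Many duplicates of nuclear respiratory chain genes in Drosophila are known to be expressed mainly in the testis. For 20E minus no hormone, 11 of 17 paralogs had a difference above 0, against 40 of 49 subunits, and none was called. COX7AL had the largest positive difference of any member there, with intensities of 39.5, 58.6 and 49.8 with 20E, against 41.8, 34.3 and 37.3 without hormone. The arrays overlapped, and the difference was 0.37 (SE 0.21, 95% interval 0.939 to 1.78-fold, adjusted p = 0.445). The other paralogs above 0 were ATPsynCF6L (0.31), COX6AL2 (0.28), COX4L (0.18), COX5BL (0.16), ND-51L1 (0.12), SdhBL (0.12), ATPsynGL (0.11), ATPsynepsilonL (0.10), SdhCL (0.08) and UQCR-14L (0.03). Those below 0 were ND-20L (-0.03), ATPsynbetaL (-0.09), ND-51L2 (-0.09), ND-24L (-0.14), SdhAL (-0.21) and ND-B14.5AL.

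ND-B14.5AL had the largest negative difference with 20E. It had intensities of 341, 313 and 266 with 20E, against 402, 402 and 364 without hormone, and all 20E arrays lay below all no hormone arrays. The difference was -0.35 (SE 0.10, 0.784-fold, 95% interval 0.678 to 0.907-fold, adjusted p = 0.115). It was called with quantile normalization (-0.41, adjusted p = 0.0779) and without 20E replicate 1 (-0.43, adjusted p = 0.0668). Its partner ND-B14.5A, the subunit proper, had the opposite sign, with 447, 440.3 and 444 with 20E, against 432, 354 and 384 without hormone, a difference of 0.19 (SE 0.08, adjusted p = 0.275).

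SdhAL, a paralog of the flavoprotein subunit of complex II, differed in direction with and without cycloheximide. It had intensities of 58.3, 68.7 and 79.0 with 20E plus cycloheximide, 57.2, 61.7 and 62.0 with 20E, 56.3, 58.1 and 51.9 with cycloheximide, and 66.8, 79.1 and 64.5 without hormone. The 20E arrays lay below those without hormone, and the 20E plus cycloheximide arrays lay just above those with cycloheximide. The differences were -0.21 (SE 0.11, adjusted p = 0.397) and 0.30 (SE 0.11, adjusted p = 0.349), and the interaction was 0.51 (SE 0.16, adjusted p = 0.226). For cycloheximide minus no hormone SdhAL had -0.33, which was not called.

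The levels of several paralogs followed the testis markers from array to array. The mean log2 intensity of the 20 markers was set against each of the 67 members over 12 arrays, with 100000 permutations of the arrays and Benjamini-Hochberg adjustment over 67 relations. The permutations crossed the treatment groups and same-numbered arrays, so arrays that deviate together can make these p-values too small. No p was computed for r within groups. All arrays share 1 normalization, and the markers and members were measured on the same arrays. Of the 17 paralogs, 8 correlated positively at an adjusted p under 0.05, as did 6 of the 49 subunits, and no member did so negatively. These 14 members were also the ones with r above 0.7, which makes 47.1% of the paralogs and 12.2% of the subunits, against 5.1% of 13926 probe sets with the markers left out. COX7AL gave r = 0.947 (p = 1e-05, the smallest the permutations can give, adjusted p = 0.00067, Spearman's rho = 0.958, p = 1e-05, adjusted p = 0.00067), ATPsynCF6L r = 0.944 (permutation p = 2e-05, adjusted p = 0.00067, rho = 0.951, p = 3e-05, adjusted p = 0.001) and COX5BL r = 0.912 (permutation p = 8e-05, adjusted p = 0.00123, rho = 0.79, p = 0.00278, adjusted p = 0.0169). Within the treatment groups r lay between 0.944 and 0.952 for these genes, and without the 2 arrays farthest from the median marker level it was 0.902, 0.922 and 0.864.

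Among the subunits, ND-13A, a matrix arm gene of complex I, gave r = 0.916 (permutation p = 3e-05, adjusted p = 0.00067, rho = 0.881, p = 0.00033, adjusted p = 0.00442), and r = 0.990 within groups and 0.858 without the 2 farthest arrays. COX7C gave r = 0.865 (permutation p = 0.0008, adjusted p = 0.00766, rho = 0.797, p = 0.00276, adjusted p = 0.0169), 0.866 within groups and 0.781 without those 2. The median r was 0.62 over the paralogs and 0.42 over the subunits, against -0.01 over 13926 probe sets with the markers left out. The other 4 subunit genes with an adjusted p under 0.05 were UQCR-Q (r = 0.80), ATPsynE (0.791), ND-39 (0.762) and ND-MWFE (0.721, permutation p = 0.00847, adjusted p = 0.0405), and for ND-MWFE Spearman's rho was 0.706 (permutation p = 0.0128, adjusted p = 0.0536) and r without the 2 farthest arrays was 0.598. Of the paralogs, 4 had a negative r, ND-B14.5AL (-0.527), ND-24L (-0.312), ND-51L2 (-0.219) and ATPsynbetaL (-0.031), and the most negative r of any member was that of the subunit gene ATPsyndelta, -0.666 (permutation p = 0.0193, adjusted p = 0.072).

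**Figure D5:**
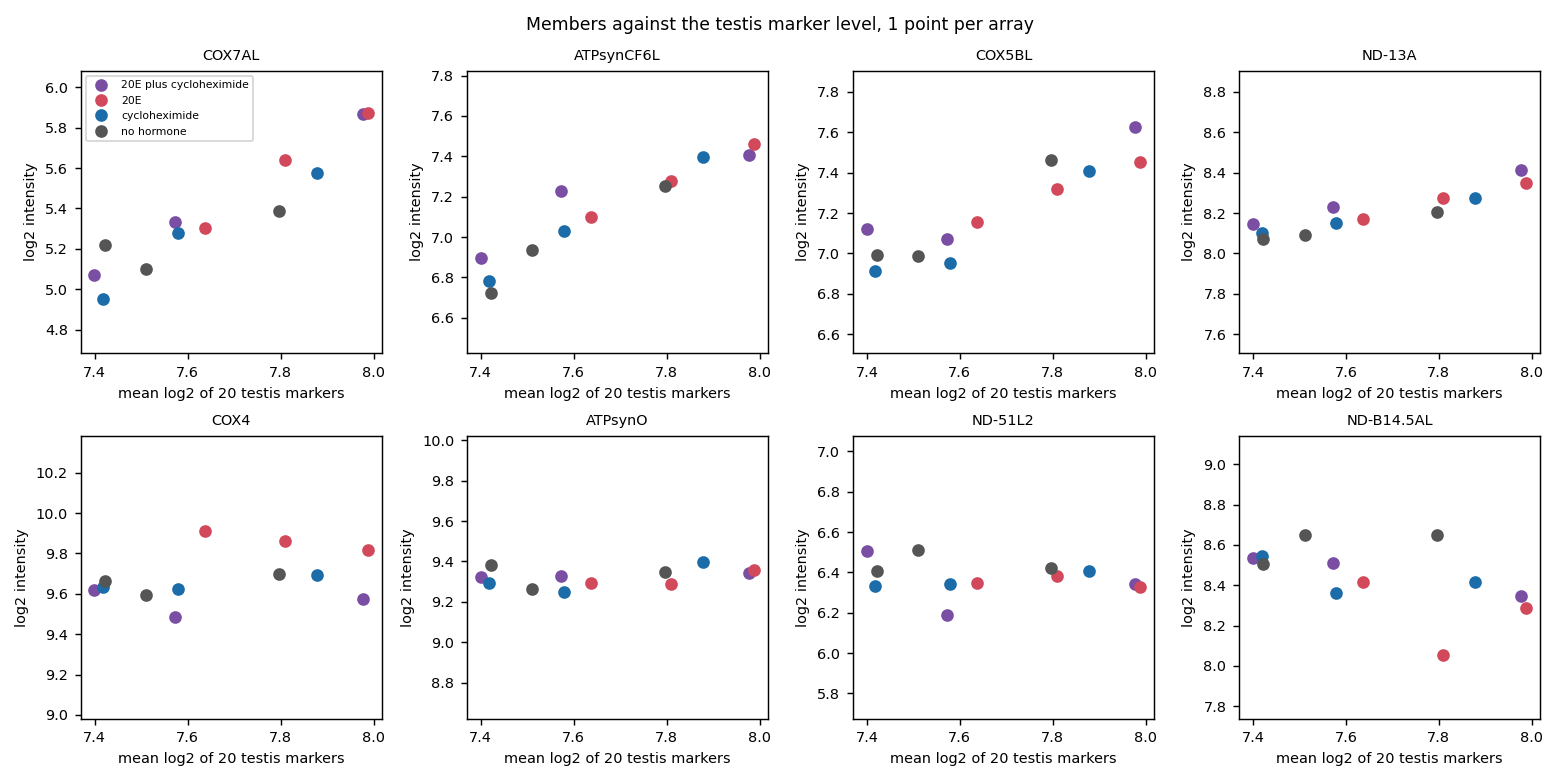
Log2 intensity of 8 members (vertical axis, the same span in each panel) against the mean log2 intensity of 20 testis markers (horizontal axis), 1 point per array and coloured by group. COX7AL, ATPsynCF6L, COX5BL and ND-13A climb with the marker level (r from 0.912 to 0.947), while COX4 and ATPsynO have r = 0.348 and 0.374.

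Some chain genes have symbols that do not follow the naming rule. Of 10 such genes listed, 7 were measured: Cyt-c1, RFeSP and ox of complex III, levy and cype of complex IV, and blw and sun of complex V. All 7 had a difference above 0 for 20E minus no hormone, with a median of 0.17, and all 7 had one below 0 for 20E plus cycloheximide minus 20E, with a median of -0.14. None was called in any comparison, where 0.394% to 3.55% of all probe sets were called per direction in the 4 comparisons. RFeSP, the Rieske iron-sulphur protein, had 0.23 (adjusted p = 0.302) and -0.33 (adjusted p = 0.142). The ATP synthase epsilon subunit gene sun had 0.29 (adjusted p = 0.115) and -0.34 (adjusted p = 0.0615), the second of them under the fold limit.

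Of 64 measured genes of the mitochondrial ribosome, which translates the subunits encoded by mitochondrial DNA, 38 had a difference above 0 for 20E minus no hormone, with a median of 0.02 and 1 called higher. The shares over all probe sets were 47.9% above 0 and 1.76% called higher. For 20E plus cycloheximide minus 20E, 37 of 64 were above 0, with a median of 0.01. None was called, against 0.981% of all probe sets called higher and 1.01% lower. Whether these medians differ from those of the respiratory chain genes was not tested. Among genes that act beside the chain, none of 12 measured genes for assembly and import of chain components was called in any comparison, and porin, the outer membrane channel, had 0.49 (adjusted p = 0.118) for 20E minus no hormone. None of 9 measured factors for mitochondrial DNA and biogenesis was called. With 0.394% to 3.55% of all probe sets called per direction, no call among 12 or 9 genes does not set them apart. Of 10 measured tricarboxylic acid cycle genes, 1 was called, ScsbetaA, a subunit of succinyl-CoA synthetase, against 1.76% of all probe sets called higher with 20E. It rose with 20E, with intensities of 428, 551 and 428 with 20E, against 369, 302 and 302 without hormone, a difference of 0.53 (adjusted p = 0.0904). The aconitase gene mAcon1 had 0.36 (adjusted p = 0.0218), which was under the fold limit.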

How the data were processed

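RNA of cultured larval organs was hybridized to Affymetrix Drosophila Genome Arrays, and the authors normalized the 12 arrays and derived expression values with dChip 1.2. The deposited values are linear intensities, 1 for each of 13966 probe sets. The baseline array and the use of mismatch probes are not given in the sources used here. Gene names came from the platform table. Of 71 probe sets with a respiratory chain symbol, 69 had 1 gene and 2 had 2 genes and were left out. For the 2 members with 2 probe sets (ATPsynC, ND-MNLL) the brighter one was used. Members and gene lists were chosen with earlier results of these data known. The text names, for each comparison, the called members or, with fewer than 3, the 3 largest differences, and further the brightest members of each complex, the widest ranging and the paralogs. COX4, COX5A, UQCR-14, ND-MWFE, ND-B14, ND-20, SdhD and ND-13A were picked for description after their values were seen, as were the genes named from the gene lists.

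Intensities under 10 were set to 10 and log2-transformed. All 4 groups entered 1 limma 3.58.1 fit (R 4.3.3) with an intensity trend in the variance prior. The fit was also run on simulated arrays with independent noise, which cannot show how it behaves where arrays or genes deviate together. Two-sided p-values were adjusted over all probe sets. The methods' own test, SAM, was not rerun. Same-numbered cycloheximide and no hormone arrays deviated together (r from 0.211 to 0.414), as did 20E plus cycloheximide and 20E arrays (r from 0.089 to 0.551). Neither pairing entered the fit that gave the SEs, intervals and adjusted p printed here. Alternatives covered floors of 1 and 50, adding 16 before log2, quantile normalization, median centring, a replicate block, a testis covariate, other probe set choices, filters and thresholds, and leaving out each array. Correlations used NumPy 2.4.6. The number of arrays limits the precision. No sequences are shown.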

Additional observations from a re-analysis of the deposited data

How the results depend on the processing

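The 9 counts of called members were recomputed under each alternative that applies to them. The count lower with 20E than without hormone was 0, and 1 with quantile normalization, and between 0 and 1 when each array was left out. The count lower with cycloheximide than without hormone was 0, and 2 with no fold limit, and between 0 and 2 with an array left out. The count lower with 20E plus cycloheximide than with 20E was 1. It was 0 with a floor of 50, with log2 of the value plus 16, with only the arrays compared in the fit and without the dimmest probe sets, 2 with no fold limit, and between 0 and 2 with an array left out. All other counts of calls remained 0. The replicate block left every one of these counts as it was, with 1 member called lower for 20E plus cycloheximide minus 20E and 0 elsewhere. Same-numbered 20E plus cycloheximide and 20E arrays had r of 0.388, 0.551 and 0.089, and differently numbered ones had r from -0.529 to 0.232. For the replicate block only these counts are given, and no SE or interval. The median for 20E minus no hormone lay between 0.07 and 0.12 with an array left out, and that for 20E plus cycloheximide minus 20E between -0.12 and -0.06. With quantile normalization 42 of 67 members had a difference above 0 for 20E minus no hormone and 21 of 67 for cycloheximide minus no hormone. With cycloheximide present that count for 20E ran from 25 to 48 as single arrays were left out. These counts above 0 were added after seeing the data. Over 165 differences of named genes and 25 alternatives, 4029 values in all, 4013 kept their side of the threshold, 7 lost a call, 9 gained one, 0 reversed a call, and 166 changed sign without a call. Only 1 of the 165 was called in the main fit, ATPsynbeta for 20E plus cycloheximide minus 20E, so most of the 4013 values were differences that stayed uncalled. All 7 lost calls were those of ATPsynbeta, which was called under 17 of 24 alternatives. The cause of these changes was not tested.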
